A study of Homo sapiens with 12 samples.

Results

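Cytosolic ribosomal protein genes encode the proteins that, with ribosomal RNA, build the 40S and 60S subunits of the ribosome outside mitochondria. They were taken from the platform's probe annotation as every gene whose symbol starts with RPS or RPL and a number, plus RPSA and the acidic stalk genes RPLP0 to RPLP2. S6 kinases and symbols ending in a P and a number, the form of a pseudogene name, were left out. Each gene was represented by its brightest probe set among those that name 1 gene. The rule found 58 genes among the 10346 with such a probe set. They comprised 22 small subunit and 36 large subunit genes, and 7 of them were paralogs of another ribosomal protein gene. Of the 58 genes 57 passed the filter on low signal. The exception was RPLP2, whose only usable probe set lay at 5.86 to 6.45 on the log2 scale over the 12 arrays.

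The cells were U251, an established cell line from a human glioblastoma, after transient transfection with small interfering RNA (siRNA), which lowers the mRNA it matches. The 4 groups of 3 arrays received siRNA against both ETV6 and NFKB1 (double siRNA), siRNA against ETV6, siRNA against NFKB1, or a non-targeting control siRNA. Each siRNA, a SMARTpool of several sequences, was used at 50 nM with DharmaFECT 2, and the labels do not say whether the total amount was matched between the double and the other transfections. Nor do they state that replicate arrays stem from different cultures, so p-values here measure array-to-array spread that may be technical. ETV6 is an ETS-family transcriptional repressor, and NFKB1 gives rise to p50, a subunit of NF-kB. The design compares each knock-down with the control, the knock-downs with one another, and the double knock-down with the sum of the single ones.

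As background, ribosomal protein mRNAs are among the most abundant messages of a growing cell, and most of their products are needed in equal numbers for each subunit. Most of these mRNAs start with a C followed by a run of pyrimidines, the 5′ terminal oligopyrimidine (TOP) motif, through which mTOR controls their translation and LARP1 binds them, affecting both their translation and their stability. Arrays measure the amount of mRNA and not its translation. Some ribosomal proteins also act outside the ribosome: RPL5 and RPL11, bound to 5S rRNA, hold back MDM2 and so raise p53.

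The start of several members shows this motif, and 7 were chosen to show it beside the results that follow. They are printed 5′ to 3′ on the strand of the gene from 40 bases before the annotated start to 30 bases from it, in the RefSeq promoter table of build GRCh38.p14. Capitals mark the run of a C and at least 4 further pyrimidines that begins nearest to the start, within 10 bases of it. RPL36, RPL18 and RPS3 are the core members with the lowest values in double siRNA, RPS6 and RPL39 are 2 core members that were not called, and RPL22L1 and RPS27L are paralogs.
RPL36 (chr19:5690255-5690324, plus strand): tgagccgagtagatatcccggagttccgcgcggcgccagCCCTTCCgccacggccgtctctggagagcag
RPL18 (chr19:48619149-48619218, minus strand): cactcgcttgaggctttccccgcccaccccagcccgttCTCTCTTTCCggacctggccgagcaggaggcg
RPS3 (chr11:75399478-75399547, plus strand): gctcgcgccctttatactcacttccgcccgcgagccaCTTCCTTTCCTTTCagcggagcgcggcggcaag
RPS6 (chr9:19380207-19380276, minus strand): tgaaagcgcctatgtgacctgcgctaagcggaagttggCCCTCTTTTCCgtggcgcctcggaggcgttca
RPL39 (chrX:119791601-119791670, minus strand): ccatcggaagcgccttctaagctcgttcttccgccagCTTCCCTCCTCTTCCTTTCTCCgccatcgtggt
RPL22L1 (chr3:170870166-170870235, minus strand): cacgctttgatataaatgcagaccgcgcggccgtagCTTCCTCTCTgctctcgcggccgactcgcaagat
RPS27L (chr15:63157448-63157517, minus strand): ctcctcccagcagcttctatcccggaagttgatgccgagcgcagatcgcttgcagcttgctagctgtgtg

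The run is present in the 6 windows of RPL36, RPL18, RPS3, RPS6, RPL39 and RPL22L1, whatever their change, and RPS27L has none within 10 bases of its start. The table had a window for 51 of the 58 members, and its first window was used where a gene had several. A C followed by 4 pyrimidines stood exactly at the annotated start in 66.7% of the 51 members' windows, against 4.07% of all 35116 windows. Within 10 bases of the start it stood in 86.3% of the members' windows, against 33.5% of all windows. The letters CCGGAAG, a long form of the ETS site, occurred on either strand of the 300-base windows (250 bases before the start and 50 from it) of 37.3% of members, against 10.3% of all windows. The shorter ETS core GGAA, which the longer form contains, was in 100% of the members' windows and in 95.5% of all windows. An NF-kB form, GGGA and TTCC with any 2 bases between, whose last letters read GGAA on the opposite strand, was in 0 of the 51 members' windows, against 1.61% of all windows. Among the genes printed above, the 300-base windows of RPL18, RPS6 and RPS27L carry the letters CCGGAAG. Those of RPL36, RPS3, RPL39 and RPL22L1 do not. A match of letters is a description of the sequence and is neither a bound site nor a cause.

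Each targeted gene was lower in the groups labelled with its siRNA. The ETV6 probe set averaged 35.1% of its control level in double siRNA, 22.6% in ETV6 siRNA and 88.6% in NFKB1 siRNA. The NFKB1 probe set, which is dim, averaged 58.8% in double siRNA, 141% in ETV6 siRNA and 60.3% in NFKB1 siRNA. Of 9 markers of astrocytic glioma GFAP, VIM, CD44, FABP7, TNC and SOX2 lay at or above the 96.8th percentile of genes, NES at 86.5, S100B at 48.3 and CHI3L1 at 39.1. The measurable markers of other cell types, KRT18, SYT1, GAD1 and MBP, lay between the 9.2nd and the 30.9th percentile. In such bulk samples fewer cells of a type and less RNA per cell cannot be told apart. The double siRNA arrays stood apart in array-wide values: their medians were 8.34 to 8.38 (log2), against 8.08 to 8.27 on the other 9 arrays. Their poly-A spike-in probe sets averaged 7.97 to 8.05, against 8.37 to 9.35, and their actin 3′ minus 5′ difference was 2.05 to 2.16, against 1.52 to 1.91. Among the controls, replicate 3 lay farthest from the other arrays of its group, with a root mean square difference of 0.28 over all genes tested and 0.064 over the members. Over the members NFKB1 siRNA replicate 3 lay farthest, at 0.106, against 0.037 to 0.076 for the other 11 arrays. The part of these array-wide values in the results was not tested.

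The members' probe sets gave strong and steady signals. Of the 58 members 51 had a mean of at least 12 on the log2 scale and 20 of at least 14, and 39 of the 100 genes with the strongest signals were members. These are probe set signals near the upper end of the scale, whose maximum was 14.65 to 14.75 per array, and they do not rank the mRNAs by abundance. The median SD of a member over 3 arrays was 0.0205 in double siRNA, 0.0295 in ETV6 siRNA, 0.0309 in NFKB1 siRNA and 0.0319 in control siRNA. For all genes tested the median SD was 0.0473 in double siRNA, 0.0710 in ETV6 siRNA, 0.0719 in NFKB1 siRNA and 0.107 in control siRNA. RPL27A, with a dim probe set at a mean of 7.71, had the largest SD of any member in each group, up to 0.299. Of the members' probe sets 16 were of the _x_at kind, whose probes can match other sequences such as pseudogene copies, 29 of the _s_at kind, whose probes are shared by several transcripts, and 13 of the plain _at kind.

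**Figure D1:**
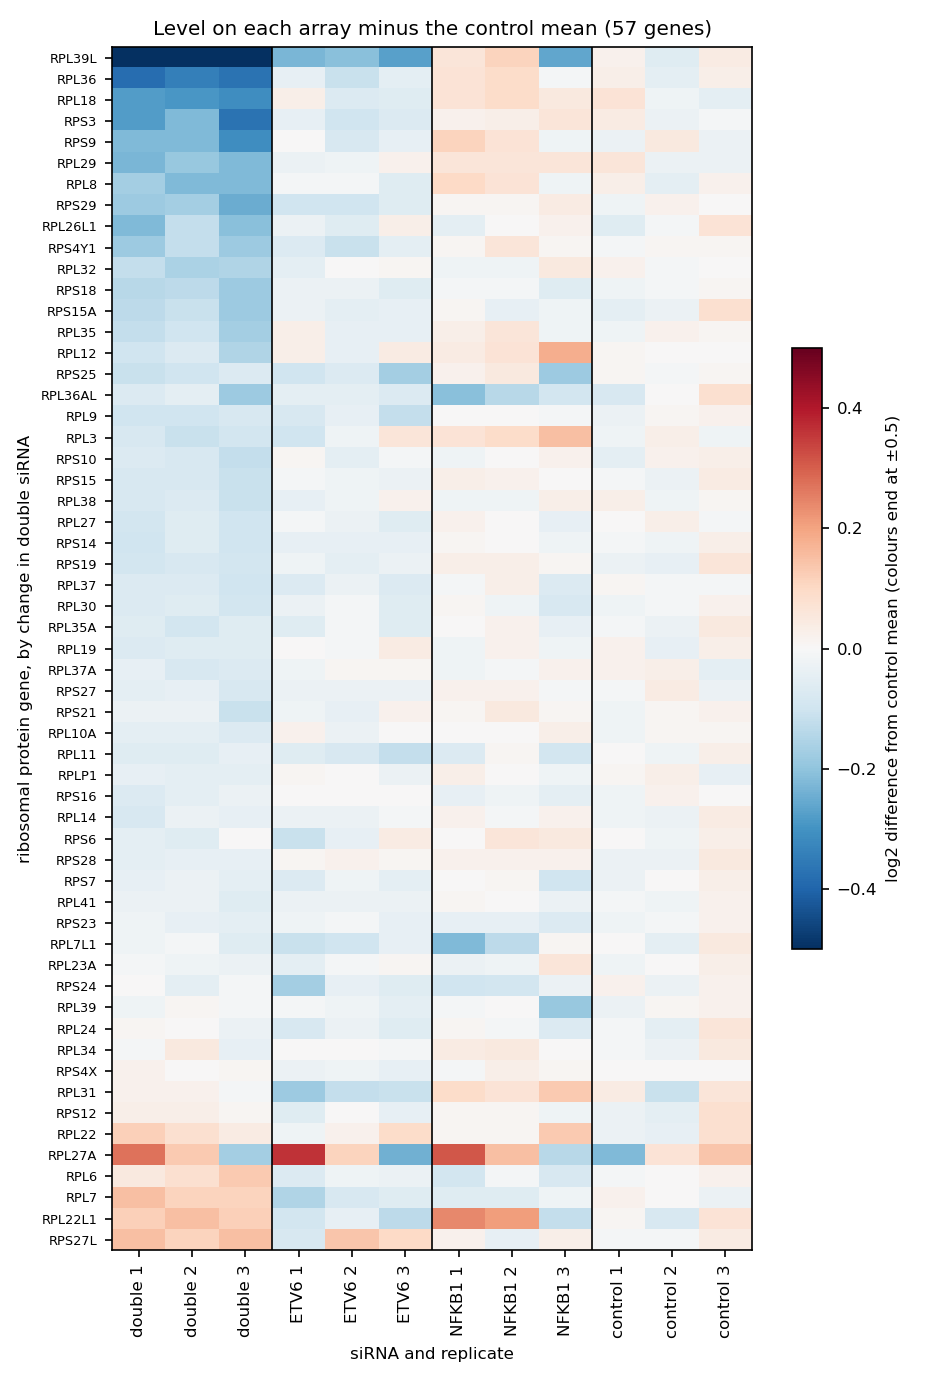
Level of each of the 57 tested members (rows, ordered by change in double siRNA) on each of the 12 arrays (columns), as the log2 difference from the mean of the 3 control arrays. Blue is lower and red is higher than control, and the colours end at ±0.5. The double siRNA columns are blue over most rows, from RPL39L at the top, and the single knock-down columns are paler.

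In the double knock-down 48 of the 57 tested members had a negative log2 change, beside 4592 of the 7760 genes tested. Most of the members' changes were of a small size, and fewer members passed the test. Against control siRNA 14 members were lower and 1 was higher among 57 (limma, Benjamini-Hochberg adjusted p under 0.05 over 7760 genes), a share of 26.3%. Over all genes tested 80.9% were called, 31.9% higher and 49% lower. The median log2 change of the members was −0.07, against −0.13 over all genes, and the median size of change was 0.08, against 0.42. Of the members 96.5% changed by at most 0.3 on the log2 scale in either direction, against 36.5% of all genes tested. By subunit, 5 of 20 small subunit core genes were lower and 0 higher, and 6 of 30 tested large subunit core genes were lower and 1 higher. Of the 7 paralogs 3 were lower and 0 higher.

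**Figure D2:**
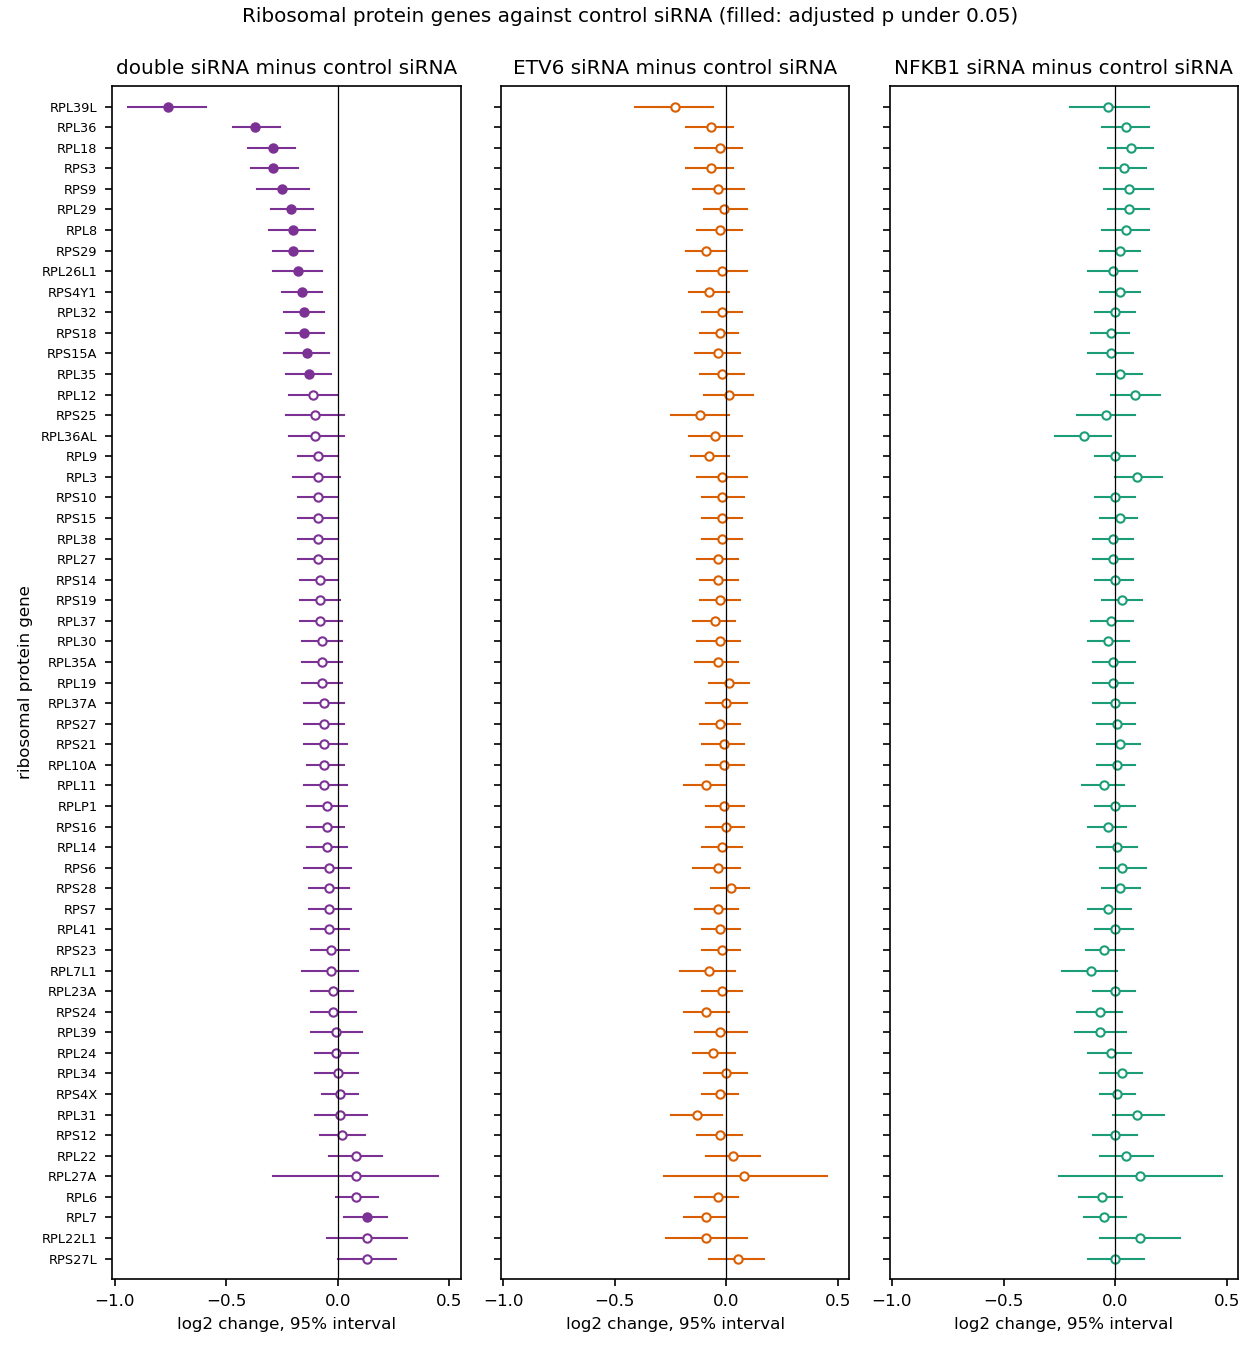
Log2 change of each member against control siRNA in double siRNA (left), ETV6 siRNA (middle) and NFKB1 siRNA (right), with its 95% interval. Filled points passed an adjusted p of 0.05. The left panel has 15 filled points, from RPL39L at −0.76 to RPL7 at 0.13, and the other panels have 0.

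RPL39L, a paralog of RPL39 known for its expression in testis, changed most. Its probe set read 7.76, 7.80 and 7.82 in double siRNA, against 8.58, 8.50 and 8.60 in control siRNA. The groups did not overlap, and the log2 change was −0.76 ± 0.08 (SE; limma adjusted p = 7.49e-06), which leaves 58.9% of the control level. In ETV6 siRNA it read 8.33, 8.35 and 8.29, also below every control array, but its change of −0.23 did not pass the test (adjusted p = 0.0946). In NFKB1 siRNA it read 8.62, 8.67 and 8.30, which overlaps the controls. RPL39 itself, whose product lines the exit tunnel of the large subunit, read 14.29, 14.32 and 14.30 in double siRNA, against 14.28, 14.32 and 14.33 in control siRNA, a log2 change of −0.01 (adjusted p = 0.911).

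RPL36, a large subunit protein, was the lowest of the core members. It read 12.59, 12.63 and 12.60 in double siRNA, against 13.00, 12.92 and 13.00 in control siRNA. The log2 change was −0.37 ± 0.05 (SE), or 77.5% of control (adjusted p = 2.68e-05). RPL18, also of the large subunit, read 13.22, 13.21 and 13.19 in double siRNA, against 13.57, 13.48 and 13.45 in control siRNA. Its log2 change was −0.29 ± 0.05 (adjusted p = 0.00015). RPS3, which lines the entry of the mRNA channel on the small subunit and has described roles in DNA repair, read 12.92, 12.98 and 12.83 in double siRNA, against 13.24, 13.17 and 13.19 in control siRNA. Its log2 change was −0.29 ± 0.05 (adjusted p = 0.000169). In all 3 genes the 3 double siRNA arrays were lower than every array of the other groups.

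The only member called higher was RPL7, a large subunit protein. It read 14.31, 14.27 and 14.27 in double siRNA, against 14.18, 14.16 and 14.13 in control siRNA. The groups did not overlap, and the log2 change was 0.13 ± 0.04 (adjusted p = 0.0165). A second RPL7 probe set, slightly dimmer, changed by 0.02 (adjusted p = 0.733 among all probe sets). The call was lost without double siRNA replicate 1 (adjusted p = 0.0626), with averaged probe sets (0.116), and with arrays shifted to equal medians (0.795). Both RPL7 probe sets are of the _x_at kind.

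The other members called lower in double siRNA are given by size, and were named after their values were seen except RPL26L1 and RPS4Y1. RPS9 and RPL29 changed by −0.25 and −0.21, RPL8 and RPS29 by −0.20 each, and RPL32, RPS18, RPS15A and RPL35 by −0.15 to −0.13. RPL26L1, the paralog of RPL26, changed by −0.18 and RPS4Y1, the Y-linked partner of RPS4X, by −0.16. RPS4X itself changed by 0.01 (adjusted p = 0.821). In each of the 14 genes called lower, the 3 double siRNA arrays lay below the 3 control arrays. Just outside the threshold were RPL9 at −0.09 (adjusted p = 0.0511), RPS15 at −0.09 (0.0521) and RPL12 at −0.11 (0.054). The arrays of many uncalled members were also separate: 39 of the 57 members had all double siRNA arrays below all control arrays and 5 had them above. That is 77.2% of members, against 84.3% of all genes tested. Of those 7760 genes 3944 lay below and 2596 above.

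**Figure D3:**
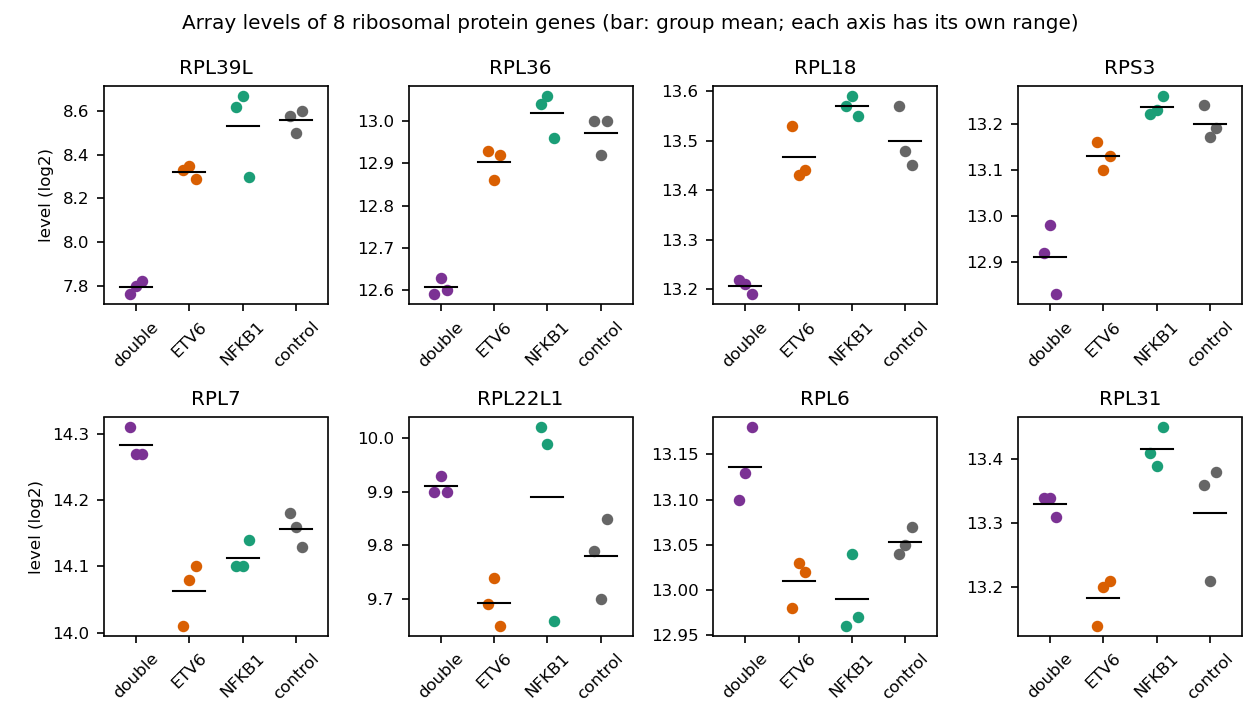
Log2 level of 8 members on each array (points) with the group mean (bar), in double, ETV6, NFKB1 and control siRNA from left to right; each panel has its own vertical range. RPL39L, RPL36, RPL18 and RPS3 are lowest in double siRNA, RPL7 and RPL6 are highest there, and RPL31 is lowest in ETV6 siRNA.

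Further core members of the fixed set were not called in double siRNA. RPS6, the substrate of the S6 kinases, read 13.82, 13.81 and 13.87 in double siRNA, against 13.87, 13.85 and 13.90 in control siRNA, a change of −0.04 (95% interval −0.15 to 0.06). The groups overlapped. RPL11, of the 5S particle that binds MDM2, changed by −0.06 (interval −0.15 to 0.04), and RPL3, near the peptidyl transferase centre, by −0.09 (−0.20 to 0.01). RPLP1 of the acidic stalk changed by −0.05 (−0.14 to 0.04), and RPS27 by −0.06 (−0.15 to 0.03). None of these 5 passed the test, although for RPL11, RPL3, RPLP1 and RPS27 the 3 double siRNA arrays lay below the 3 control arrays.

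Of the 7 paralogs 5 had a negative change in double siRNA, and RPS27L and RPL22L1 had a positive one that did not pass the test. RPS27L, a paralog of RPS27 that p53 is known to induce, read 13.47, 13.43 and 13.47 in double siRNA, against 13.31, 13.31 and 13.36 in control siRNA. The groups did not overlap, but the change of 0.13 had an adjusted p of 0.0566. Among its dimmer probe sets 1 changed by 0.18 (adjusted p = 0.192 among all probe sets) and 1 fell by 0.42 (0.00224), so the probe sets of this gene disagreed in direction. RPL22L1, the paralog of RPL22, changed by 0.13 (adjusted p = 0.172) and RPL22 by 0.08 (0.189). Of the 4 dimmer RPL22 probe sets 3 changed by 0.04 to 0.08 without passing the test, and 1 fell by 0.20 (0.00197). RPL36AL changed by −0.10 (0.128) and RPL7L1 by −0.03 (0.615).

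**Figure D4:**
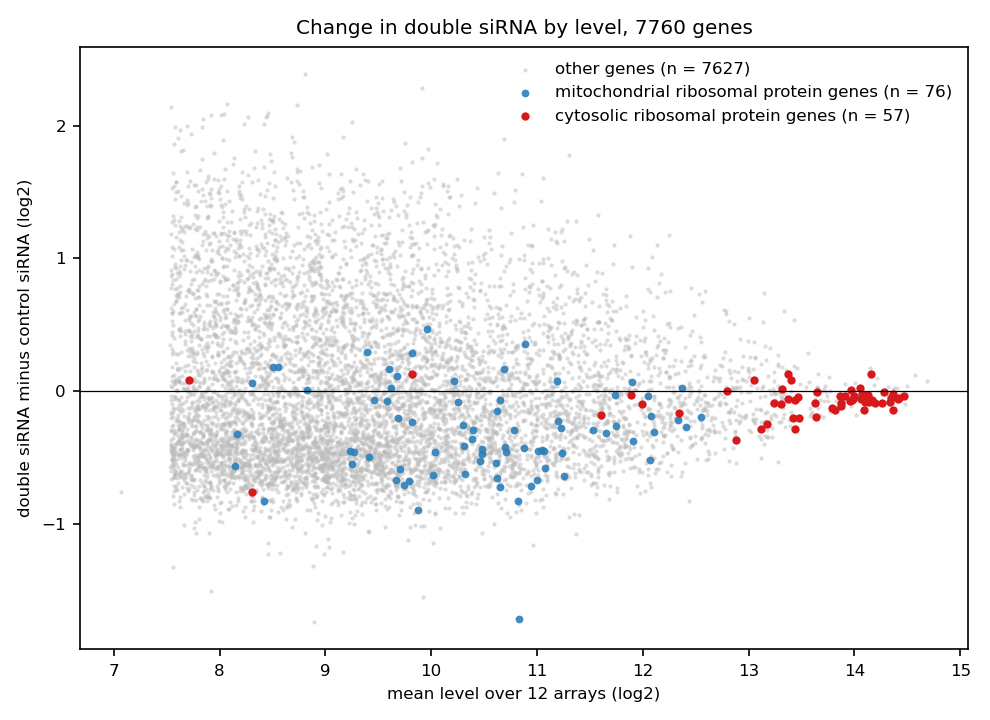
Log2 change in double siRNA against control siRNA (vertical axis) by mean signal over the 12 arrays (horizontal axis, log2) for the 7760 genes tested. Cytosolic ribosomal protein genes (red) lie mostly above a signal of 13 and close to 0, mitochondrial ribosomal protein genes (blue) lie at lower signals and mostly below 0, and changes of all genes narrow towards strong signals.

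The size of change was smaller at strong signals for other genes too. Of the 154 other genes with a mean signal of at least 13, 54.5% were called in double siRNA, with a median change of −0.04 and a median size of 0.13. Of the 48 members above the same level 22.9% were called, with a median change of −0.06 and a median size of 0.08. The members called lower had a median signal of 13.43, against 13.96 for those not called. Of the 13 tested members with a plain _at probe set 8 were called lower, with a median change of −0.16. Of the 28 with an _s_at probe set 5 were called lower (median −0.07), and of the 16 with an _x_at probe set 1 (median −0.04). In 9 of 14 members with several probe sets of at least 12, the dimmest had the lower change, in 4 the higher and in 1 the same to 2 decimals. RPS16 was the widest case, with −0.18 for its dimmest such probe set and −0.05 for its brightest. The part of signal strength and probe set kind in the results was not tested.

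How many members were called depended on the scaling and on the variance assumed. The deposited arrays had unequal medians, and shifting the arrays to equal medians moved the change in double siRNA of all genes to a median of −0.24 and that of the members to −0.17. With that shift 42 members were called lower and 0 higher, where 82.4% of all genes were called. With quantile normalization 12 were lower and 3 higher, where 82.8% of all genes were called. A prior variance that follows the signal called 32 lower and 3 higher, where 81.3% of all genes were called. With every probe set tested on its own, 14 of the 57 brightest probe sets of the members were lower and 1 higher, and of their 30 other probe sets 11 were lower and 0 higher, where 78.7% of 14597 probe sets were called. Of the 14 lower calls 11 were made under each of 20 alternatives, and RPL39L, RPL36, RPL18 and RPS3 were among them.

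In the single knock-downs no member passed the test against control with its brightest probe set. In ETV6 siRNA 0 members were called in either direction against control by limma, where 10.7% of all genes were called, 4.38% higher and 6.28% lower, and 2 members had an unadjusted p under 0.05. The median change was −0.03, and 51 of 57 members had a negative value, beside 3844 of the 7760 genes tested. The values ran from −0.23 for RPL39L to 0.08 for RPL27A. Of the 57 intervals 52 lay within ±0.25 and all 57 within ±0.5. The 3 ETV6 siRNA arrays lay below the 3 control arrays for 15 members and above for 0, a share of 26.3% in either direction. Over the 7760 genes tested they lay below for 985 and above for 918, a share of 24.5%.

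In NFKB1 siRNA 0 members were called in either direction against control by limma, where 40.6% of all genes were called, 15.5% higher and 25.1% lower, and 1 member had an unadjusted p under 0.05. That member was RPL36AL, a paralog of RPL36A, which read 11.86, 11.93 and 11.98 in NFKB1 siRNA, against 11.99, 12.07 and 12.15 in control siRNA. The groups did not overlap, and the change of −0.14 had an adjusted p of 0.0575. The median change was 0.00, and the values ran from −0.14 for RPL36AL to 0.11 for RPL27A. Of the 57 intervals 54 lay within ±0.25 and all 57 within ±0.5. The NFKB1 siRNA and control arrays did not overlap for 12.3% of members, against 47.8% of all genes. Of 30 other single-gene probe sets of members, 2 were called higher and 3 lower in NFKB1 siRNA. Those lower were 2 of RPL22, at −0.38 and −0.23, and 1 of RPL7 at −0.21. Those higher were 1 of RPL31 at 0.44 and 1 of RPS21 at 0.20. These calls come from a fit of every probe set on its own. Its share of all probe sets called in NFKB1 siRNA is not given here, so the calls have no background beside them. With arrays shifted to equal medians 7 members were called higher, where 50.3% of all genes were called. With array weights 6 were higher and 2 lower, where 60.7% of all genes were called. Leaving out NFKB1 siRNA replicate 3 gave 1 higher and 2 lower, where 38.1% of all genes were called. Leaving out control replicate 1 gave 1 lower, where 47% of all genes were called.

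**Figure D5:**
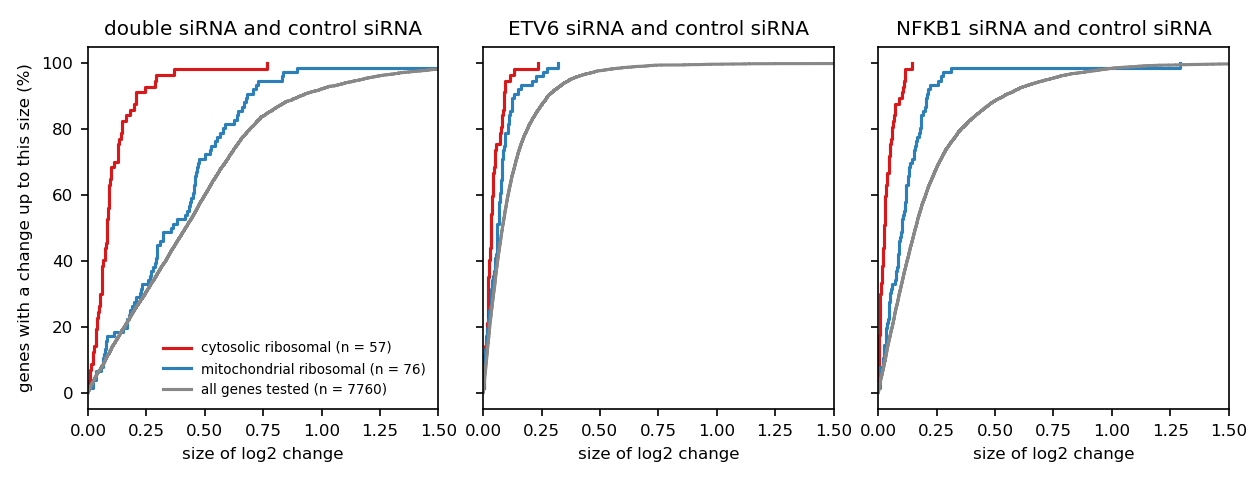
Share of genes (vertical axis, %) whose log2 change against control siRNA has at most the size on the horizontal axis, for cytosolic ribosomal protein genes (red), mitochondrial ribosomal protein genes (blue) and all genes tested (grey), in double, ETV6 and NFKB1 siRNA from left to right. The red line reaches 96.5% at a size of 0.3 in double siRNA, where the grey line is at 36.5%.

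The double knock-down was also set against each single one. Against ETV6 siRNA 13 members were lower and 4 higher, where 86.2% of all genes were called, 34.9% higher and 51.2% lower. RPL39L, RPL36 and RPL18 were again the lowest, at −0.53, −0.29 and −0.26. The highest were RPL7 at 0.22, RPL22L1 at 0.22 and RPL31 at 0.15. RPL22L1 read 9.90, 9.93 and 9.90 in double siRNA, against 9.69, 9.74 and 9.65 in ETV6 siRNA (adjusted p = 0.028). The calls of RPL22L1 and RPL31 lay near the threshold and were lost when single arrays were left out. Without double siRNA replicate 1 their adjusted p-values were 0.0582 and 0.0592. They were 0.0613 and 0.073 without ETV6 siRNA replicate 1, and 0.0683 and 0.0513 without double siRNA replicate 2. RPL22L1 alone also lost its call without double siRNA replicate 3 (0.054) or ETV6 siRNA replicate 3 (0.0803). In these fits the change itself stayed at 0.19 to 0.22 for RPL22L1 and at 0.12 to 0.14 for RPL31. The higher count was 1 without ETV6 siRNA replicate 1, where 82.7% of all genes were called. It was 2 without any 1 of the double siRNA arrays, where 83% to 83.4% were called. With arrays shifted to equal medians 40 members were lower and 0 higher, where 86.2% of all genes were called. RPL7 was then at 0.10 (adjusted p = 0.151).

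Against NFKB1 siRNA 18 members were lower and 2 higher in double siRNA, where 89.1% of all genes were called, 37.7% higher and 51.4% lower. RPL39L, RPL36 and RPL18 changed by −0.74, −0.42 and −0.36. RPL7 and RPL6, both of the large subunit, were higher by 0.17 and 0.15. RPL6 read 13.10, 13.13 and 13.18 in double siRNA, against 12.96, 13.04 and 12.97 in NFKB1 siRNA (adjusted p = 0.00692). With arrays shifted to equal medians both turned negative, RPL7 to −0.03 and RPL6 to −0.05. These 2 comparisons and the one with control share the double siRNA arrays, so their calls are not independent.

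Between the single knock-downs 1 member was called. RPL31, a large subunit protein at the tunnel exit, read 13.14, 13.20 and 13.21 in ETV6 siRNA, against 13.41, 13.39 and 13.45 in NFKB1 siRNA. The groups did not overlap, and the log2 change was −0.23 ± 0.05 (adjusted p = 0.00539). Of all genes 34.9% were called in this comparison, 21.8% higher and 13.1% lower. Neither single knock-down separated this brightest RPL31 probe set from control by the test, with −0.13 (adjusted p = 0.143) in ETV6 siRNA and 0.10 (0.135) in NFKB1 siRNA. Of its much dimmer probe sets, at mean levels of 7.39 and 7.11, the first rose by 0.44 in NFKB1 siRNA (adjusted p = 0.000876 among all probe sets). The second changed by 0.12 there (0.433). In double siRNA, where RPL31 read 13.34, 13.34 and 13.31, it differed from control by 0.01. Without NFKB1 siRNA replicate 3 the count of lower members in this comparison was 5, without control replicate 3 it was 3, and without ETV6 siRNA replicate 3 it was 2. Of all genes 32%, 47.1% and 26.5% were called in these fits, in either direction. The count of lower members was 13 with arrays shifted to equal medians, 9 with array weights and 8 with a prior variance that follows the signal. There 42.7%, 55.8% and 36.6% of all genes were called.

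The interaction asks whether the double knock-down differs from the sum of the single ones. It was negative for 9 members and positive for 2 at the same threshold, where 86.3% of all genes were called, 36.5% higher and 49.8% lower. RPL39L, RPL36 and RPL18 had the lowest values, at −0.50 ± 0.11, −0.34 ± 0.07 and −0.33 ± 0.07 (adjusted p = 0.00134, 0.000492 and 0.000708). RPL36 had changed by −0.37 in double siRNA, by −0.07 in ETV6 siRNA and by 0.05 in NFKB1 siRNA, each against control. RPL7 at 0.26 and RPL6 at 0.19 were the positive ones (adjusted p = 0.00152 and 0.0128). With arrays shifted to equal medians RPL7 was no longer called (0.06, adjusted p = 0.552) and RPL6 turned to −0.02. The positive count was 4 without NFKB1 siRNA replicate 3, where 86.5% of all genes were called in either direction. The member median of the interaction was −0.04, against −0.18 over all genes.

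Genes of related pathways outside the members were also called in double siRNA. Of 76 mitochondrial ribosomal protein genes, whose products build the separate ribosome of mitochondria, 54 were lower and 6 higher, with a median of −0.32. MRPS12, MRPL11 and MRPL23 had the smallest adjusted p-values, with changes of −1.72, −0.63 and −0.64. Of 13 tested chaperones and assembly factors of ribosomal proteins 8 were lower and 3 higher, with a median of −0.47. AAMP, related to a yeast chaperone of Rpl10, fell by 0.61, BYSL, a factor of small subunit maturation, fell by 0.76, and NMD3, the export adaptor of the large subunit, rose by 1.33. The share called was 78.9% in the mitochondrial list and 84.6% in the assembly list, beside 80.9% of all genes, and no list was tested as a set.

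All 11 tested regulators of ribosomal protein synthesis were called in double siRNA, where 80.9% of all genes were called. Of the regulators 8 were lower and 3 higher, with a median of −0.47 and values from −1.15 to 0.91. EIF4EBP1, the repressor of cap-dependent translation that mTOR inactivates, fell by 1.15, LARP1, which binds TOP mRNAs, fell by 0.47, and the S6 kinase gene RPS6KB2 fell by 0.69. Of 13 tested translation genes whose mRNAs also carry a TOP motif 5 were higher and 4 lower, a share of 69.2%, with a median of 0.06. The eIF3 subunit genes EIF3F and EIF3H moved apart, by −0.41 and 0.46, and EEF1D, of elongation factor 1, fell by 0.24. FAU, which encodes a small subunit protein fused to a ubiquitin-like one and lies outside the name rule, fell by 0.27. RPS19BP1, left out by its name and not a ribosomal protein, fell by 0.68. In the p53 arm MDM4, an inhibitor of p53, rose by 1.14 and CDKN1A, a p53 target, fell by 0.35.

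In ETV6 siRNA, where 10.7% of all genes were called, 1 of the 11 regulators was higher and 1 lower, and 1 of the 13 assembly genes was lower. LARP4, a poly(A) mRNA-binding protein gene, fell by 0.95, MYC rose by 0.30 and the RPL23 chaperone gene BCCIP fell by 0.33. None of the 13 TOP translation genes and 3 of the 76 mitochondrial genes, all lower, were called there. In NFKB1 siRNA, where 40.6% of all genes were called, 1 of the 11 regulators was higher and 4 were lower, a share of 45.5%. LARP4 fell by 1.28, the assembly factor gene LTV1 by 0.42, the RPL3 chaperone gene GRWD1 by 0.58 and MRPS12 by 1.29. There 4 of 13 assembly genes were lower and 0 higher, 2 of 13 TOP translation genes were lower and 0 higher, and 12 of 76 mitochondrial genes were higher and 4 lower. In double siRNA LARP4 went the other way, with 0.91 against control as the highest value among the 11 regulators.

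The members lie on many chromosomes, with 7 each on chromosomes 19 and 3 as the largest numbers. Of the members called lower in double siRNA 3 lie on chromosome 19 and 3 on chromosome 3, and the other 8 lie on 8 other chromosomes. Among members with a promoter window the letters CCGGAAG were in 36.4% of the 11 called lower in double siRNA and in 35.9% of the 39 not called. The pyrimidine run at the start was in 72.7% of those called lower and in 64.1% of those not called. These shares are descriptions of few genes and were not tested.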

How the data were processed

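Total RNA from 12 U251 samples was hybridized to Affymetrix expression arrays, 1 per sample. The authors deposited log2 levels per probe set; their background correction and normalization methods are not given in the sources used. Of 19520 probe sets, the platform annotation gives 1 gene to 17313, several to 857 and none to 1293, beside 57 controls. The brightest single-gene probe set represented each of 10346 genes. A filter at the 25th percentile of mean level (7.54 on the log2 scale), from which ETV6 and NFKB1 were exempt, kept 7760 of them. A linear model with 1 mean for every group was fitted over the 12 arrays with lmFit and eBayes of limma 3.58.1 under R 4.3.3, giving 8 residual degrees of freedom and 3.41 from the prior. Tests of 7 comparisons were two-sided, with Benjamini-Hochberg adjustment across all genes and calls at an adjusted p under 0.05. With 3 arrays a side, exact permutation could give no p below 0.1. Arrays carry no counts, and their number limits precision.

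The members, gene lists and naming rule were chosen with earlier results of these data known. The rule named the 4 highest and 4 lowest called members of each comparison with control whose arrays did not overlap, the 3 highest and 3 lowest of the other comparisons, a fixed set of members, and at most 3 called genes from every other list. Promoter windows came from RefSeq. The fit was tested on simulated data. Alternatives changed the scaling, filter, probe set choice, array weights, groups fitted and blocking, or left out an array; every probe set on its own and a prior variance following the signal were added after seeing the data. Of the value columns 0 were unused. Replicate numbers showed no sign of pairing arrays across groups. Deviations of same-numbered arrays correlated at −0.52 to 0.48, and 5 of 18 pairs exceeded 0.1. Those of differently numbered arrays correlated at −0.52 to 0.64, and 11 of 36 pairs exceeded 0.1.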

Additional observations from a re-analysis of the deposited data

Results flagged for a closer look

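The difference between the double knock-down and the sum of the single ones was tested by the interaction term and passed the threshold for 11 members, 9 lower and 2 higher. That is 19.3% of the members tested, where 86.3% of all genes were called. With arrays shifted to equal medians 42 were lower and 0 higher, where 87% of all genes were called. The values were −0.50 for RPL39L, −0.34 for RPL36, −0.33 for RPL18, −0.27 for RPS9, −0.26 for RPL29, −0.25 for RPS3, −0.22 for RPL8, −0.21 for RPL12 and −0.18 for RPL3. They were 0.19 for RPL6 and 0.26 for RPL7. RPS9, RPL29, RPL8 and RPL12 were named after their values were seen. The double siRNA arrays that carry this term also stood apart in array medians, poly-A spike-in signals and actin 3′ minus 5′ differences, whose part in these values was not tested. Groups of 3 arrays are too small for a search for outlying arrays.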

How the results depend on the processing

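Counts are of members called higher and lower, and the cause of a change was not tested. With arrays shifted to equal medians they were 0 and 42 for double siRNA against control, 0 and 1 for ETV6 siRNA, 7 and 0 for NFKB1 siRNA, 0 and 40 for double against ETV6 siRNA, 0 and 51 for double against NFKB1 siRNA, 0 and 13 for ETV6 against NFKB1 siRNA, and 0 and 42 for the interaction. In the same order 82.4%, 10.1%, 50.3%, 86.2%, 90%, 42.7% and 87% of all genes were called with that shift. Against NFKB1 siRNA RPL6 reversed to −0.05 and RPL7 to −0.03, and the interaction of RPL6 to −0.02. Quantile normalization gave 3 and 12 for double siRNA, 0 and 1 for ETV6 siRNA, 6 and 10 for double against ETV6 siRNA, 4 and 15 against NFKB1 siRNA, 0 and 5 between single knock-downs, and 3 and 11 for the interaction. It called 82.8%, 12.1%, 86.6%, 89.8%, 40.8% and 87.2% of all genes, in the same order. Averaged probe sets gave 1 and 19 for double siRNA, 1 and 1 for NFKB1 siRNA, 4 and 23 for double against NFKB1 siRNA, 0 and 2 between single knock-downs, and 3 and 13 for the interaction. They called 81.2%, 40.1%, 89.3%, 34% and 86.3% of all genes, in the same order. Array weights gave 7 and 31 for double siRNA, 0 and 1 for ETV6 siRNA, 6 and 2 for NFKB1 siRNA, 4 and 28 for double against NFKB1 siRNA, 0 and 9 between single knock-downs, and 4 and 18 for the interaction. They called 89%, 30.2%, 60.7%, 92.5%, 55.8% and 89.1% of all genes, in the same order. Fitting only the groups compared gave 2 and 14 for double siRNA, where 79.2% of all genes were called. A prior variance following the signal gave 3 and 32 for double siRNA, 0 and 2 for ETV6 siRNA, 1 and 1 for NFKB1 siRNA, 5 and 24 for double against ETV6 siRNA, 3 and 35 against NFKB1 siRNA, 0 and 8 between single knock-downs, and 4 and 18 for the interaction. It called 81.3%, 10.7%, 41.1%, 86.5%, 89.5%, 36.6% and 86.8% of all genes, in the same order.

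Leaving out each array in turn gave 0 to 2 higher and 12 to 16 lower for double siRNA, 0 to 0 and 0 to 1 for ETV6 siRNA, 0 to 1 and 0 to 2 for NFKB1 siRNA, 1 to 4 and 9 to 14 for double against ETV6 siRNA, 2 to 3 and 15 to 19 against NFKB1 siRNA, 0 to 0 and 1 to 5 between single knock-downs, and 2 to 4 and 8 to 10 for the interaction. The share of all genes called was 76.7% to 82.6% for double siRNA, 5.62% to 12.4% for ETV6 siRNA and 30.3% to 47% for NFKB1 siRNA. For the other comparisons it was 82.7% to 87.1%, 86.7% to 89.9%, 21.5% to 47.1% and 84% to 86.5%, in the same order. For double siRNA the higher count was 0 without double siRNA replicate 1 and 2 without control replicate 3, ETV6 siRNA replicate 1 or 2, or NFKB1 siRNA replicate 3. For ETV6 siRNA the lower count was 1 without control replicate 2 or NFKB1 siRNA replicate 3. No filter, and the replicate block, gave the main counts: with the block 1 and 14 for double siRNA, 0 and 0 for each single knock-down, 4 and 13 for double against ETV6 siRNA, 2 and 18 against NFKB1 siRNA, 0 and 1 between single knock-downs, and 2 and 9 for the interaction. The block called 81% of all genes for double siRNA, 9.79% for ETV6 siRNA and 41.2% for NFKB1 siRNA. For the other comparisons it called 86.2%, 89%, 35% and 86.1%, in the same order. Of 1395 values of named genes under the alternatives 3 changed sign and lost the call of the main fit. A further 17 lost a call with the same sign, 41 gained one, and 43 changed sign without a call in either fit.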

Other observations

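Of the 57 probe sets that name several genes with a ribosomal protein gene among them 56 passed the filter, and 19 ribosomal protein genes are named only by such probe sets. In double siRNA against control 5 of the 56 were higher and 19 lower, with a median change of −0.07 and a range of −0.71 to 0.49, where 78.7% of all 14597 probe sets were called. In ETV6 siRNA 0 were higher or lower, and in NFKB1 siRNA 4 were higher and 2 lower. Of 30 other single-gene probe sets of members that passed the filter 0 were higher and 11 lower in double siRNA, with a median of −0.05. In ETV6 siRNA 0 of these 30 were higher or lower, and in NFKB1 siRNA 2 were higher and 3 lower. For the single knock-downs the share of all probe sets called is not given here, so their probe set counts have no background beside them.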
